A study of Mus musculus with 6 samples.

Results

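The antiviral interferon-stimulated genes described here are Ifit1, Ifit2, Ifit3, Oasl2, Rtp4, Usp18, Isg15, Rsad2 and Ifi35. The 9 genes were listed by name and selected on their signals and imatinib ratios on these 6 arrays, so their values are given as a description, with no test. A gene was measured where a probe set carried its symbol alone, which held for 8 of the 9 listed genes and for 11 probe sets, out of 12393 genes on the array. Isg15 was not analysed here, because its probe set carries 2 gene symbols. The other 8 genes exceeded the signal floor, 20.1 signal units, on at least 1 array. That floor is the median signal of all probe sets, and lower signals were set to it before a ratio was taken.

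Interferons bind receptors that activate JAK kinases and transcription factors of the STAT and IRF families, which switch on genes through the interferon-stimulated response element (ISRE). The products of those genes act on viral replication at many steps. IFIT proteins bind foreign RNA and hinder its translation, OAS proteins sense double-stranded RNA, and ISG15 is a ubiquitin-like modifier that is joined to other proteins. The interferon-gamma activated site (GAS) is the element bound by STAT dimers.

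The cells were Ba/F3, a mouse pro-B line that depends on interleukin 3 (IL3). The 6 arrays covered 3 lines, each untreated or exposed for 4 h to 100 nM imatinib (Glivec), which blocks the tyrosine kinases ABL, KIT and PDGFR. The vector line carried the empty pMSCV retroviral vector and was kept in IL3. The other lines carried pMSCV with ETV6-PDGFRB or FIP1L1-PDGFRA, fusion oncogenes that encode constantly active receptor kinases, and were selected for growth without IL3. All lines grew in DMEM with 10% serum. The untreated comparisons of a fusion line with the vector line therefore differ in the oncogene, in IL3 supply and in selection, which cannot be told apart. Each combination of line and treatment had 1 array, so values carry no replicate error and differences could not be set against replicate spread. The small number of arrays limits precision throughout.

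On each array 49.8% to 50.6% of the 22690 probe sets exceeded the floor, which is near its 50th percentile by construction. Of 12 pro-B cell markers, 11 were on the array and 3 exceeded the floor, namely Cd79a, Cd79b and Igll1, while Pax5, Ebf1, Rag1 and Vpreb1 were below it on every array. Of 6 macrophage markers 2 exceeded it, Adgre1 and Csf1r, and the summed signal of the 6 was 350 and 366 in the vector line, 126 and 112 in the ETV6-PDGFRB line and 335 and 234 in the FIP1L1-PDGFRA line (untreated, then treated). That sum was lowest in the ETV6-PDGFRB line and followed Adgre1, and its part in the results below was not tested. Of 4 T and NK cell markers on the array 1 exceeded the floor, Cd3g, with a highest signal of 21.9. Of 4 plasmacytoid dendritic cell markers 1 did, Tcf4. In such whole-culture RNA, fewer cells with a transcript and less transcript per cell cannot be told apart.

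The untreated fusion lines had high signals of the IFIT genes, and the vector line had low ones. Ifit1, whose protein binds viral RNA lacking cap methylation, had signals of 307 with ETV6-PDGFRB and 457 with FIP1L1-PDGFRA in untreated cells. With imatinib the Ifit1 signals were 11.4 and 30.7, and those of the vector line were 1.97 untreated and 1.29 treated. The treated ETV6-PDGFRB array and both vector arrays were thus below the floor, while the treated FIP1L1-PDGFRA array was just above it. Ifit1 was at least 15.3-fold lower with imatinib in ETV6-PDGFRB cells and 14.9-fold lower in FIP1L1-PDGFRA cells.

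Ifit2, a family member built of the same tetratricopeptide repeats, was measured above the floor on every array. Its signals were 29.3 and 26.7 in the vector line, 104 and 84.2 in the ETV6-PDGFRB line, and 216 and 49.1 in the FIP1L1-PDGFRA line, untreated and treated. With imatinib it was 1.24-fold lower in ETV6-PDGFRB cells and 4.40-fold lower in FIP1L1-PDGFRA cells. Ifit2 was the 1 gene of the 8 that stayed within 2-fold in a fusion line, and after imatinib its signal was higher in ETV6-PDGFRB than in FIP1L1-PDGFRA cells. The treated ETV6-PDGFRB array remained 3.15-fold above the treated vector array, and the treated FIP1L1-PDGFRA array 1.84-fold above it.

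Ifit3, which forms complexes with other IFIT proteins, went from 64.8 to 9.28 with imatinib in the ETV6-PDGFRB line and from 135 to 18.3 in the FIP1L1-PDGFRA line. In the vector line it was 4.32 and 13.8, below the floor on both arrays. Both treated fusion arrays were also below the floor, so the 3.23-fold and 6.72-fold lower levels in ETV6-PDGFRB and FIP1L1-PDGFRA cells are lower bounds. The mouse has a close copy, Ifit3b, and whether its transcript binds the same probes was not tested.

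**Figure D1:**
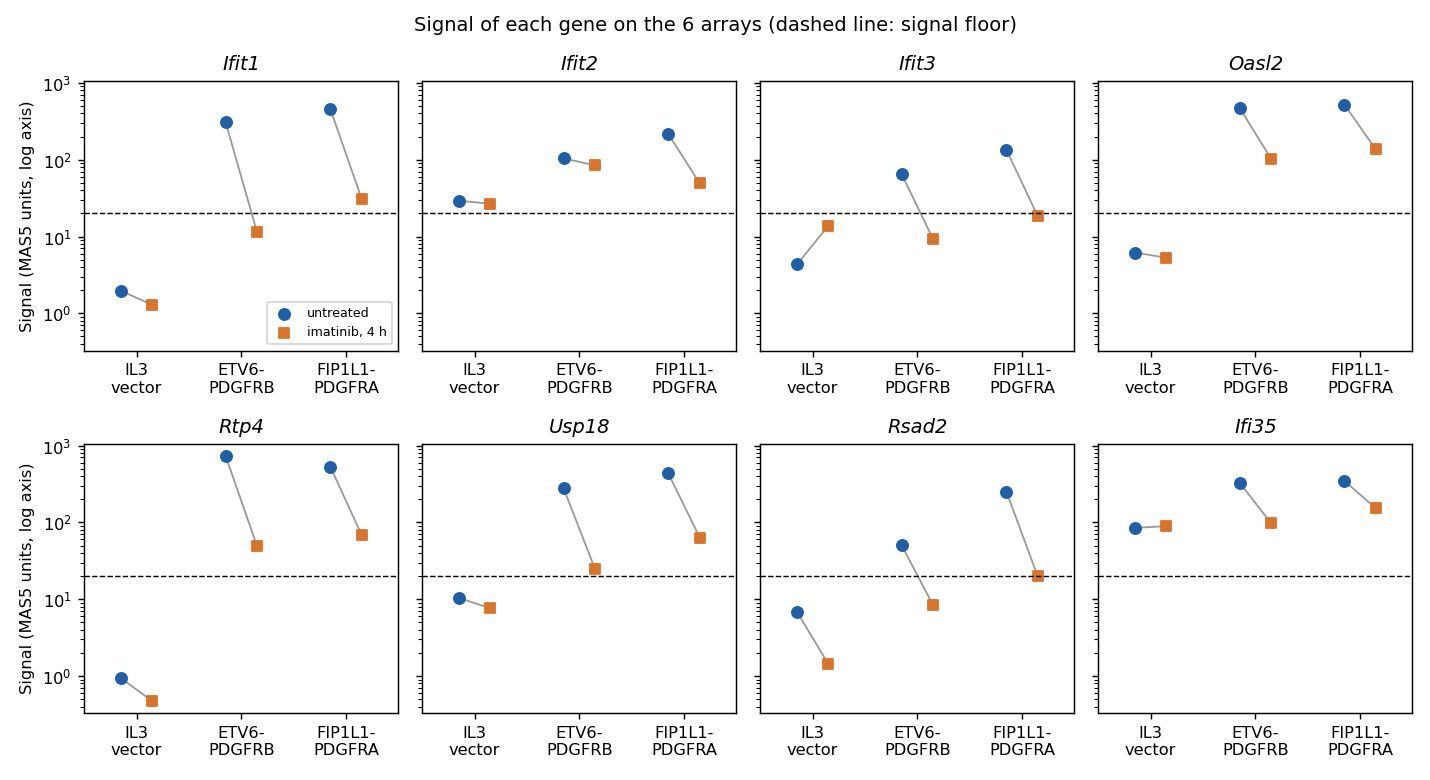
Signal of each of the 8 measured genes on the 6 arrays, in MAS5 units on a log axis, with 1 point per array; circles are untreated cells, squares are cells given imatinib for 4 h, and the dashed line is the floor of 20.1. The untreated fusion arrays sit highest for each gene, and Ifit2 in ETV6-PDGFRB cells has the flattest line of the fusion pairs, from 104 to 84.2.

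Promoter windows from RefSeq (assembly GRCm38.p6, 250 bases before to 50 after each start) were available for 7 of the 9 listed genes. They were searched on both strands for the ISRE core, written as GAAA, 2 bases of any kind and GAAA (on the other strand TTTC, 2 bases and TTTC). They were also searched for GAS, written as TTC, 3 bases of any kind and GAA, which reads the same on both strands. The ISRE core was found in 4 of the 7, Ifit1, Ifit3, Isg15 and Rsad2, against 3.99% of all 27025 genes with a window (3.44% of 32851 windows). GAS was found in 2 of the 7, in a window of Ifit2 and, after the start, in that of Ifi35, against 9.55% of genes (8.30% of windows). Among genes on the array above the floor with a window, 4.06% held the ISRE core. Of the 6 measured genes with a window 3 did, and of 8 IRG and GBP GTPase genes 7 did. Both lists were made of known interferon-inducible genes, so these shares support nothing on their own. The Ifit1 and Ifit3 windows each held 2 matches with the same letters in the same order, TTTCACTTTC and then TTTCAGTTTC, whose first bases were 104 and 85 bases before the start in Ifit1 and 156 and 122 in Ifit3. Isg15 held 3, each overlapping the next. Oasl2 held neither motif, which says only that these letters are absent from that window.

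The 200 bases before the start are shown for Ifit1, the gene with large ratios in both fusion lines, and for Rsad2, the gene of the 8 with the largest ratio between the untreated fusion lines. Capitals mark ISRE core matches, and each sequence reads 5′ to 3′ on the strand of its gene, Ifit1 on the plus strand at chr19:34640689-34640888 and Rsad2 on the minus strand at chr12:26456453-26456652.
Ifit1: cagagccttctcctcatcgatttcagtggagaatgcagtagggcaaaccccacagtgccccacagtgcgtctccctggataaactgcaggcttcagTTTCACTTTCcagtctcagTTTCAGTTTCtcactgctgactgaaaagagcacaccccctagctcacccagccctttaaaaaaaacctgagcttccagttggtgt
Rsad2: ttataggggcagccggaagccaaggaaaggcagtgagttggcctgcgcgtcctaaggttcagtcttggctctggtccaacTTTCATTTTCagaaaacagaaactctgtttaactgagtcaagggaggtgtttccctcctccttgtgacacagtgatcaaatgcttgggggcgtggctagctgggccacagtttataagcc
The Rsad2 match, TTTCATTTTC, begins 120 bases before the start. A match is a run of letters, and no binding was measured.

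**Figure D2:**
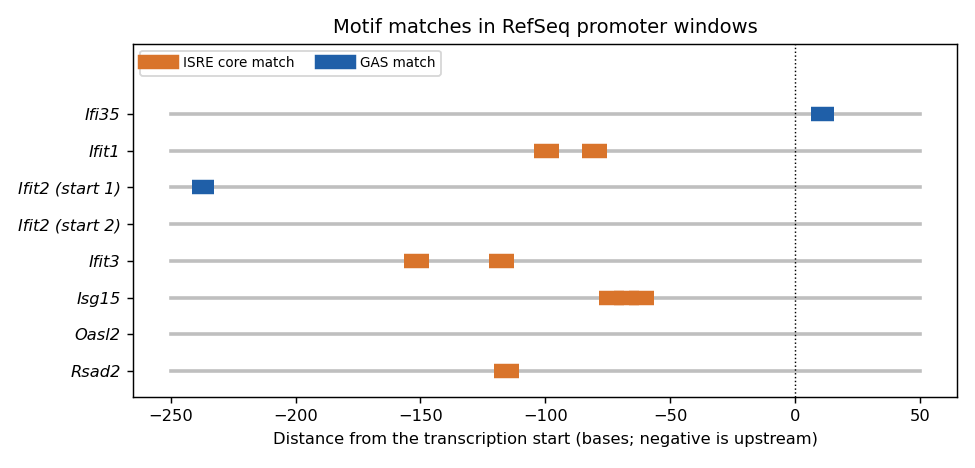
Positions of ISRE core and GAS matches, in bases from the transcription start, in the promoter windows of 7 listed genes (Ifit2 has 2 starts); each grey line is a window. ISRE core matches lie upstream of the start in Ifit1, Ifit3, Isg15 and Rsad2.

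Rsad2, which encodes viperin, an enzyme that makes a chain-terminating nucleotide, differed more between the untreated fusion lines than the other 7 genes. Its untreated and treated signals were 50.3 and 8.35 with ETV6-PDGFRB, and 252 and 19.8 with FIP1L1-PDGFRA. The vector arrays were at 6.86 and 1.43, and both treated fusion arrays were below the floor as well. Without drug Rsad2 was 5.01-fold higher in FIP1L1-PDGFRA than in ETV6-PDGFRB cells. Imatinib left it at least 2.51-fold lower with ETV6-PDGFRB and at least 12.6-fold lower with FIP1L1-PDGFRA. Its other 2 probe sets were dimmer, at 25.7 and 18.6 in untreated ETV6-PDGFRB cells and 99.1 and 84.5 in untreated FIP1L1-PDGFRA cells, so the order of the lines was the same on all 3. The median over the 3 probe sets gave a log2 ratio of -0.35 for imatinib in ETV6-PDGFRB cells. That is a lower bound of the size, under the 2-fold limit, because the treated signals were below the floor.

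Oasl2, an OAS family protein with ubiquitin-like domains, had untreated and treated signals of 471 and 103 with ETV6-PDGFRB, and of 523 and 136 with FIP1L1-PDGFRA. The vector line had 6.18 and 5.29. Oasl2 was 4.57-fold and 3.84-fold lower with imatinib in ETV6-PDGFRB and FIP1L1-PDGFRA cells. After treatment it remained at least 5.14-fold (ETV6-PDGFRB) and 6.77-fold (FIP1L1-PDGFRA) above the treated vector array.

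Usp18 encodes the protease that removes ISG15 from proteins and that also dampens interferon receptor signalling. Its signals, untreated and treated, were 277 and 24.7 with ETV6-PDGFRB, 433 and 63.4 with FIP1L1-PDGFRA, and 10.4 and 7.60 in the vector line. With imatinib it was 11.2-fold lower in the ETV6-PDGFRB line and 6.83-fold lower in the FIP1L1-PDGFRA line. The treated FIP1L1-PDGFRA array was 2.57-fold above the treated ETV6-PDGFRB array, which was itself just over the floor.

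Rtp4, an interferon-induced chaperone of membrane receptors, had untreated and treated signals of 732 and 49.3 with ETV6-PDGFRB, and of 532 and 67.9 with FIP1L1-PDGFRA. The vector arrays were at 0.939 and 0.471. It was the only gene of the 8 whose untreated signal was higher in ETV6-PDGFRB than in FIP1L1-PDGFRA cells, by 1.38-fold, an order that the median over its 2 probe sets did not keep (log2 ratio 0.07). Rtp4 was 14.9-fold lower with imatinib in ETV6-PDGFRB and 7.83-fold lower in FIP1L1-PDGFRA cells. The dimmer Rtp4 probe set was below the floor on every array, with a highest signal of 7.74. The median over both probe sets gave imatinib log2 ratios of -1.61 and -1.68, lower bounds of the size because the treated medians were below the floor.

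Ifi35, a leucine zipper protein that pairs with NMI, was above the floor on every array. Untreated and treated, it was at 84.8 and 89.4 in the vector line, 329 and 97.5 with ETV6-PDGFRB, and 347 and 153 with FIP1L1-PDGFRA. The treated ETV6-PDGFRB signal was 1.09-fold that of the treated vector line. Ifi35 was 3.37-fold and 2.27-fold lower with imatinib in ETV6-PDGFRB and FIP1L1-PDGFRA cells.

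As a group, 7 of 8 genes were at least 2-fold lower with imatinib in ETV6-PDGFRB cells, where 2.86% of 6852 genes were. In FIP1L1-PDGFRA cells 8 of 8 were, where 2.97% of 6743 genes were. The median log2 ratio of the 8 was -1.97 with ETV6-PDGFRB and -2.76 with FIP1L1-PDGFRA, against 0.03 and 0.05 over all genes with a ratio. In the vector line 2 of the 8 had a ratio, Ifit2 (-0.13) and Ifi35 (0.08), and 0 passed 2-fold, where 0.0599% of 6674 genes were lower past it. The other 6 were below the floor on both vector arrays. The genes were chosen with these contrasts known, and the counts support nothing on their own.

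**Figure D3:**
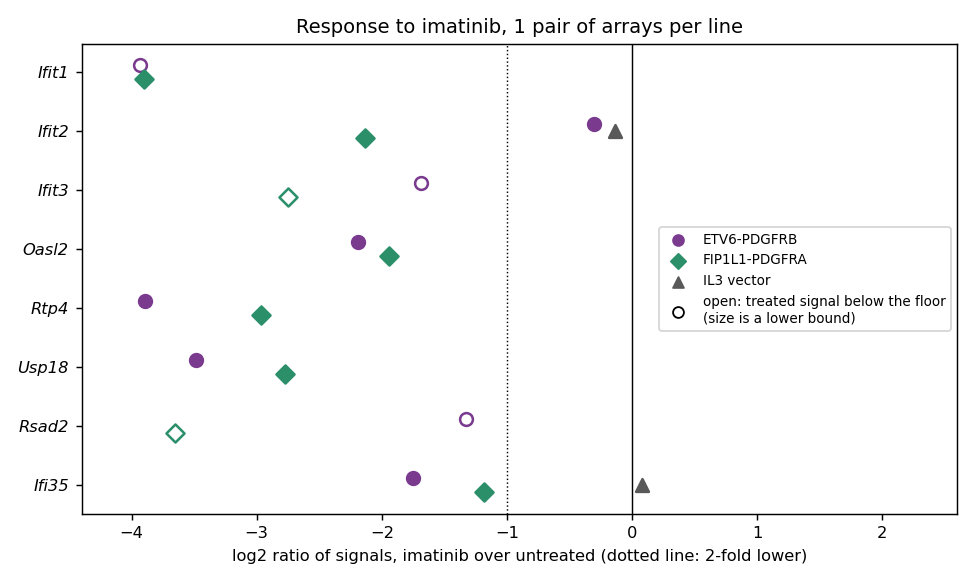
The log2 ratio of signals, imatinib over untreated, for each gene in each line, from 1 pair of arrays per line; open symbols mark a treated signal below the floor, where the size is a lower bound, and the dotted line is 2-fold lower. Ifit1 lies at -3.93 or lower in ETV6-PDGFRB cells and at -3.90 in FIP1L1-PDGFRA cells, and Ifit2 at -0.31 and -2.14.

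The order of the fusion lines in their response differed from gene to gene. The difference of the log2 ratios, FIP1L1-PDGFRA minus ETV6-PDGFRB, was 0.92 for Rtp4, 0.72 for Usp18, 0.57 for Ifi35 and 0.25 for Oasl2. These were thus lowered further in ETV6-PDGFRB cells, Oasl2 only slightly. With hybridization control scaling the Oasl2 difference was 0.14, under the SD over all genes of the vector line imatinib ratios, 0.195. The order was not determined for Rtp4 with the median over its probe sets (-0.07), where both treated medians were below the floor. Nor was it for Usp18 with the floor at the 60th percentile (-0.07), where the treated ETV6-PDGFRB signal was below that floor. For Ifit2 the difference was -1.83, so Ifit2 was lowered further in FIP1L1-PDGFRA cells, and it stayed between -1.94 and -1.52 under the 7 other settings. The ratios for Ifit3 and Rsad2 rest on treated signals below the floor in both lines, so the differences in their responses were not determined. For Ifit1 only the ETV6-PDGFRB ratio was a bound, and the difference was at least 0.04. With hybridization control scaling it was -0.29 and the order was not determined. With 1 array each, no difference was tested.

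Without drug, 8 of 8 genes were at least 2-fold higher in ETV6-PDGFRB than in vector cells, where 2.24% of 6790 genes were, and 8 of 8 in FIP1L1-PDGFRA cells, where 1.82% of 6719 genes were. The 6 genes below the floor in the vector line could have a ratio only through the fusion arrays and had to be higher there. In the order ETV6-PDGFRB, FIP1L1-PDGFRA, lower bounds of the fold were 36.5 and 26.5 for Rtp4, 23.5 and 26.0 for Oasl2, 15.3 and 22.8 for Ifit1, and 13.8 and 21.6 for Usp18. The median over probe sets gave log2 ratios of at least 1.61 and 1.68 for Rtp4. The smallest bounds with ETV6-PDGFRB were those of Ifit3 (3.23) and Rsad2 (2.51). With the floor at the 60th percentile both were under 2-fold there, which left 6 of 8, and with the median over probe sets Rsad2 was, which left 7 of 8. For Ifi35, measured on both sides, the folds were 3.88 and 4.09, and for Ifit2 they were 3.56 and 7.39. These comparisons share the untreated fusion arrays with the imatinib ratios.

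After imatinib, 3 of the 5 genes with a ratio were still at least 2-fold above the treated vector array in ETV6-PDGFRB cells, namely Ifit2, Oasl2 and Rtp4, where 4.43% of 6846 genes were. In FIP1L1-PDGFRA cells it was 3 of 6, namely Oasl2, Rtp4 and Usp18, where 2.23% of 6758 genes were. Of the genes with a ratio, Oasl2, Rtp4, Usp18 and Ifit1 were below the floor on the treated vector array. They could have a ratio only through the fusion arrays and had to be higher there. Both counts also depended on the floor. With it at the 60th percentile each was 1, and at the 40th the count was 4 with ETV6-PDGFRB and 5 with FIP1L1-PDGFRA. With the median over probe sets each was 2, since Rtp4 then had no ratio. With the pseudocount the FIP1L1-PDGFRA count was 4.

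The level of these genes was also compared between the untreated fusion lines. In 7 of 8 the signal was higher in FIP1L1-PDGFRA cells, and 3 passed 2-fold, Rsad2, Ifit3 (2.09-fold) and Ifit2 (2.08-fold), where 0.752% of 6780 genes did. Among the 7, Oasl2 (log2 ratio 0.15) and Ifi35 (0.08) were within the SD over all genes, 0.35. With a pseudocount of 20 in place of the floor, Ifit3 and Ifit2 were just under 2-fold (log2 ratios 0.87 and 0.93) and 1 of 8 passed. The median log2 ratio of the 8, FIP1L1-PDGFRA over ETV6-PDGFRB, was 0.61, against -0.04 over all genes. Of 4 other OAS genes with a ratio 4 were higher in FIP1L1-PDGFRA cells, with a median of 0.28. The 19 other antiviral effectors with a ratio lay on both sides, 13 higher and 6 lower, with a median of 0.16. The interferon-inducible GTPases of the IRG and GBP families, a list drawn up after their values were seen, had lower signals in FIP1L1-PDGFRA cells. Of their 10 genes with a ratio 10 were lower in FIP1L1-PDGFRA cells, 4 of them past 2-fold, where 0.870% of 6780 genes were, and the median was -0.81. Gbp2b, for example, was at 2078 with ETV6-PDGFRB and 832 with FIP1L1-PDGFRA, while Irgm1 (log2 ratio -0.32) was within the SD over all genes. The directions of the medians of the 8 genes and of the GTPases were the same under each of 7 other settings. In cells given imatinib 1 of 6 genes with a ratio, Usp18, was past 2-fold higher in FIP1L1-PDGFRA cells, where 0.606% of 6763 genes were. That count was 0 with the floor at the 60th percentile or with the pseudocount, and 3 with the floor at the 40th. With 1 array per line the difference between the groups was not tested.

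**Figure D4:**
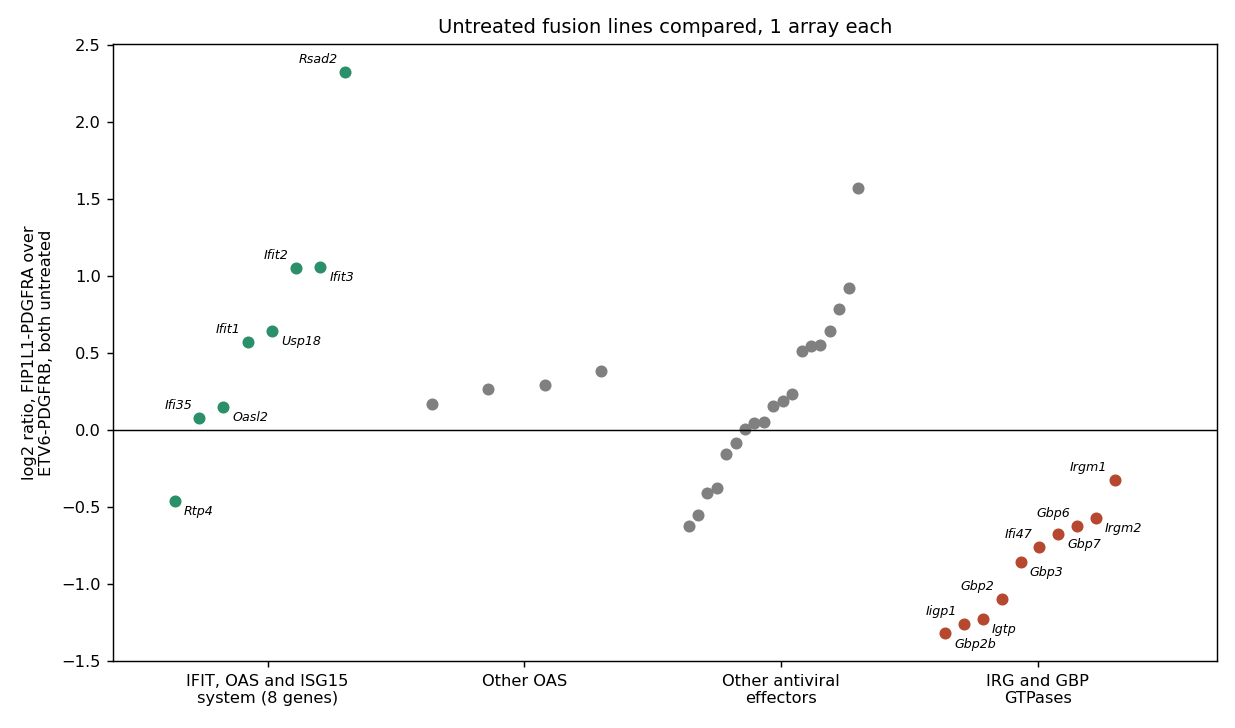
The log2 ratio of untreated FIP1L1-PDGFRA over untreated ETV6-PDGFRB signals, 1 array each, with a point per gene for the 8 measured genes, other OAS genes, other antiviral effectors and the IRG and GBP GTPases. Rsad2 lies at 2.33 and Rtp4 at -0.46, while the GTPases lie between -1.32 and -0.32.

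The rest of the interferon pathway was read from lists of known genes. All 9 interferon ligand genes on the array, Ifnb1 and Ifng among them, were below the floor on every array, with a highest signal of 7.33. Of 7 receptor and JAK kinase genes 0 were lower past 2-fold in either fusion line with imatinib, and 1, the interferon gamma receptor gene Ifngr1, was higher in ETV6-PDGFRB cells, at 81.7 before and 194 after (1.61% of all genes were higher). With hybridization control scaling 1 of the 7 was lower in FIP1L1-PDGFRA cells. Among 7 STAT and IRF genes with a ratio, 4 were 2-fold lower with ETV6-PDGFRB and 3 with FIP1L1-PDGFRA, where 2.86% and 2.97% of all genes were. The latter count was 1 with the pseudocount and 5 with hybridization control scaling. Stat2 went from 108 to 43.5 and from 117 to 37.6 in these lines, and Irf9, its DNA-binding partner, from 149 to 70.2 and from 158 to 75.6. Irf7, which amplifies interferon responses, went from 247 to 78.3 and from 272 to 138, and Irf1 from 403 to 105 and from 175 to 77.7.

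Other enzymes of the ISG15 pathway had smaller ratios. Of 3 on the array, 0 were 2-fold lower with ETV6-PDGFRB, where 2.86% of 6852 genes were. With FIP1L1-PDGFRA 1 was, where 2.97% of 6743 genes were. It was Ube2l6, the conjugating enzyme of ISG15, at 117 before and 54.2 after. With the pseudocount the FIP1L1-PDGFRA count was 0, and with hybridization control scaling the ETV6-PDGFRB count was 1. The activating enzyme gene Uba7 went from 227 to 146 and from 197 to 135. The median log2 ratios of the 3 were -0.72 and -0.54, and all 3 ratios were below 0 in both lines. In the OAS family 3 of 4 with a ratio were 2-fold lower in both fusion lines, Oas2, Oas3 and Oasl1. Over all genes with a ratio in both lines 126 of 6640 were. With the pseudocount 1 OAS gene was. Oas3, a synthase of the messenger that activates RNase L, went from 99.5 to 27.5 and from 112 to 42.3.

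Among 5 nucleic acid sensor genes with a ratio in both lines 2 were 2-fold lower in both, Zbp1 and Dhx58, and Zbp1, a sensor of Z-form nucleic acid, went from 389 to 94.4 and from 258 to 58.4. That count was 1 with the floor at the 60th percentile or the median over probe sets. Of 22 other antiviral effectors on the array, 19 had a ratio with ETV6-PDGFRB and 20 with FIP1L1-PDGFRA. In both lines 7 were 2-fold lower, against the 126 of 6640 genes with a ratio in both. The ADP-ribosyltransferase gene Parp14 went from 304 to 51.9 and from 197 to 51.6, and its relative Parp9 from 441 to 134 and from 416 to 149. Mx1, a dynamin-like GTPase that blocks viral nucleoproteins, went from 65.6 and 95.6 to below the floor in ETV6-PDGFRB and FIP1L1-PDGFRA cells.

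Genes with the pattern most like these were found by the root-mean-square distance, on the log2 scale over the 6 arrays, between each centred gene and the median of the 8. Among 7010 other genes the nearest were Serpinb9 (distance 0.36), Irgm1 (0.40), Cxcl10 (0.41), Parp14 (0.47), Oas3 (0.51), Tapbpl (0.56), Gbp3 (0.56) and Oas2 (0.57). The median distance of the 7010 was 1.49. Serpinb9, an inhibitor of granzyme B, had untreated and treated signals of 106 and 30.3 with ETV6-PDGFRB, 152 and 25.5 with FIP1L1-PDGFRA, and 14.7 and 13.1 in the vector line. Cxcl10, an interferon-induced chemokine, had 91.6 and 11.8, 141 and 14.1, and 1.42 and 3.57 in the same order. Both were highest in untreated FIP1L1-PDGFRA cells, whereas 3 of the 8 nearest genes, Irgm1, Parp14 and Gbp3, were highest in untreated ETV6-PDGFRB cells. The genes were picked for their likeness, which is therefore no result.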

How the data were processed

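RNA from 6 Ba/F3 cultures was measured on Affymetrix mouse arrays, from 5 µg per labelling reaction. The table the authors deposited holds a linear intensity for each probe set on each array, for which the submitters' processing notes name GCOS 1.4.0 and MAS5. How background was set, and the detection calls, are not given in the sources used here. With 2% trimmed from both ends the mean signal came to 100.0 on all 6 arrays, so each had been scaled.

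Of 22690 probe sets 20393 had 1 symbol in the platform annotation, 691 had several and 1606 had none, and 64 of them were controls, which were used for no gene. Where a gene had several probe sets, the one brightest on average (log2) stood for it. Signals below the floor (median over arrays of the 50th percentile, 20.1) were set to it, and a log2 ratio was taken where at least 1 array exceeded it. Where 1 did not, the fold is written as at least that size. Genes were counted past 2-fold with no test, since each group had 1 array. The code was tested on simulated data. Python 3.11.15, numpy 2.4.6, pandas 2.3.3 and matplotlib 3.10.9 were used.

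The genes and lists were chosen with earlier results of these data known. Named pathway genes were, per list, at most 3 that moved past 2-fold one way in both fusion lines, with the largest mean ratios, Stat2, Irf9 and Irf7, and the 8 genes nearest in pattern. Ifngr1, Ube2l6, Uba7, Gbp2b, and the genes listed below the floor or in the closing section were named after their values were seen.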

Additional observations from a re-analysis of the deposited data

Results flagged for a closer look

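Ifit2 was higher in FIP1L1-PDGFRA than in ETV6-PDGFRB cells without drug (log2 ratio 1.05) and lower with it (-0.78). For Rtp4 the same ratio was -0.46 without drug and 0.46 with it. These stood out because the lines were ordered in opposite ways in untreated and treated cells. Ifi35 was lower with imatinib in ETV6-PDGFRB (-1.75) and FIP1L1-PDGFRA cells (-1.18) and slightly higher in the vector line (0.08), where the SD over all genes was 0.20. None of these differences was tested, since each rests on 1 array per line and treatment.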

How the results depend on the processing

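The counts and ratios of the 8 genes were recomputed under 7 alternatives, namely floors at the 40th and 60th percentile, a pseudocount of 20, 3 other array scalings, and the median over probe sets. Of 406 recomputed ratios of single genes 0 reversed a direction past 2-fold, which a floor or pseudocount could not do. Ratios under 2-fold were not counted there, and some changed sign. With the floor at the 40th and 60th percentile 23 of 59 and 29 of 55 ratios moved by at least 0.195 (log2). With the pseudocount 27 of 59 did, with hybridization control scaling 29 of 59, and with the median over probe sets 10 of 56. With each of the other scalings 0 of 59 did. Of 168 counts from the pathway lists, recomputed after seeing the data, 156 stayed within 1.5 times. They include counts of the interferon ligands, none of which exceeded the floor. The nearest genes and the motif matches were not recomputed. With the floor at the 60th percentile the genes 2-fold above the treated vector array numbered 1 with ETV6-PDGFRB and 1 with FIP1L1-PDGFRA, and with the floor at the 40th there were 5 in FIP1L1-PDGFRA cells, since the floor sets which signals count. The number lower with imatinib in ETV6-PDGFRB cells was 5 at the 60th percentile, where the bounds of Ifit3 (-0.61) and Rsad2 (-0.24) were under 2-fold. The number higher there than in untreated vector cells was 6. Scaling to 9 hybridization control probe sets moved the median over all genes for imatinib to -0.14 with ETV6-PDGFRB and -0.23 with FIP1L1-PDGFRA, and the medians of the 8 genes to -2.15 and -3.02. No paired analysis was possible because the groups share fewer than 2 replicate numbers. A model with the lines as pairs was left out, since the genes were selected on these ratios. Signals below the floor carry no order.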

Other observations

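Some interferon-linked genes outside the 9 listed were chosen after their values were seen. Ifi27l2a and Lgals9 were higher in the fusion lines and stayed there with imatinib. Ifi27l2a, an interferon-induced gene, was at 114 untreated and 180 treated in ETV6-PDGFRB cells, at 339 and 395 in FIP1L1-PDGFRA cells, and at 40.4 and 45.9 in the vector line. Lgals9, which encodes galectin 9, was at 864 and 891, 652 and 662, and 276 and 250 in the same order. Ifitm1 and Ifitm2, membrane proteins that hinder viral entry, had high signals in every line, between 2920 and 3432 for Ifitm1 and between 1770 and 1895 for Ifitm2. These values come from 1 array per line and treatment and were not tested.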
